A study of Mus musculus with 6 samples.

Results

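The genes described here encode AMP-activated protein kinase (AMPK) and proteins named as its upstream regulators. They are the 7 subunit genes Prkaa1, Prkaa2, Prkab1, Prkab2, Prkag1, Prkag2 and Prkag3, and the upstream genes Stk11, Strada and Flcn. They were chosen by name, with earlier results of these arrays known, and make up 10 of the 19938 genes that the array names by a single symbol. Each of the 10 had 1 probe set, and all 10 were among the 16487 genes tested. Gastrocnemius muscle (a calf muscle) came from 3 mice homozygous for a knockout of Sparc, which encodes a secreted collagen-binding glycoprotein, and from 3 wild type mice. All 6 were males of 12 weeks, and both genotypes carry the strain label B6;129S-Sparctm1Hwe/J, a mixed B6 and 129S background. Total RNA of each mouse was hybridised to 1 Affymetrix gene array. The labels name no treatment, litter or tissue restriction of the deletion. They do not say that samples came from separate litters or days, so p-values measure the spread between these arrays.

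AMPK is a heterotrimer that senses a fall in cellular energy. A catalytic alpha subunit (Prkaa1 or Prkaa2) is held by a scaffolding, glycogen-binding beta subunit (Prkab1 or Prkab2) to a gamma subunit (Prkag1, Prkag2 or Prkag3) that binds adenine nucleotides. The kinase LKB1 (Stk11), in a complex with the pseudokinase STRAD (Strada) and a scaffold protein, phosphorylates the activation loop of the alpha subunit. Folliculin (Flcn) works with its partners Fnip1 and Fnip2, binds AMPK through them and acts on Rag GTPases at the lysosome. In skeletal muscle the active kinase promotes glucose uptake and fatty acid oxidation. The arrays measured transcripts only, and neither phosphorylation nor kinase activity.

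Sparc itself read 6.74, 6.46 and 5.83 in knockout arrays 1, 2 and 3 and 11.80, 11.73 and 11.87 in wild type arrays 1, 2 and 3, all as log2 intensity (log2 change -5.46, adjusted p = 2.08e-05). The 7 skeletal muscle markers lay between 11.8 and 13.4 in the knockouts and between 11.6 and 13.5 in the wild types, so the labelled tissue matched its defining genes. Knockout arrays differed more among themselves, with a median SD per gene of 0.163 against 0.0912 in the wild types. On the first principal component knockout array 2 fell closest to the wild type arrays, and values without it are given where it decided whether a gene passed or moved an AMPK gene's change by over 1.5 times.

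Of the 10 AMPK genes, 8 had lower mean levels in knockout muscle and 2 had higher ones, where 50% of all genes tested had a negative change. In limma's test 0 of the 10 passed an adjusted p of 0.05, which 0.995% of all genes passed, 0.321% higher and 0.673% lower. At the nominal level, meaning limma's p before adjustment under 0.05, 5 of the 10 had lower values (Flcn, Strada, Prkag3, Prkab2 and Prkag1) and 0 had higher ones. Over all genes the nominal shares were 10.3% lower and 8.16% higher, 18.4% in all. The groups did not overlap in 4 genes (Flcn, Strada, Prkag3 and Prkag1), each time with the knockouts lower. Over all genes 25% had groups that did not overlap, 13.8% with knockouts lower and 11.1% with knockouts higher. The median log2 change of the 10 genes was -0.20, with 5.34e-05 over all genes tested. The individual changes ran from -0.48 to 0.16, so every difference was modest in size. Without knockout array 2, 2 of the genes passed over all genes, namely Prkab2 (log2 change -0.70, adjusted p = 0.0147) and Flcn (-0.59, adjusted p = 0.0274). In that fit 1019 of all genes passed, in place of 164.

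**Figure D1:**
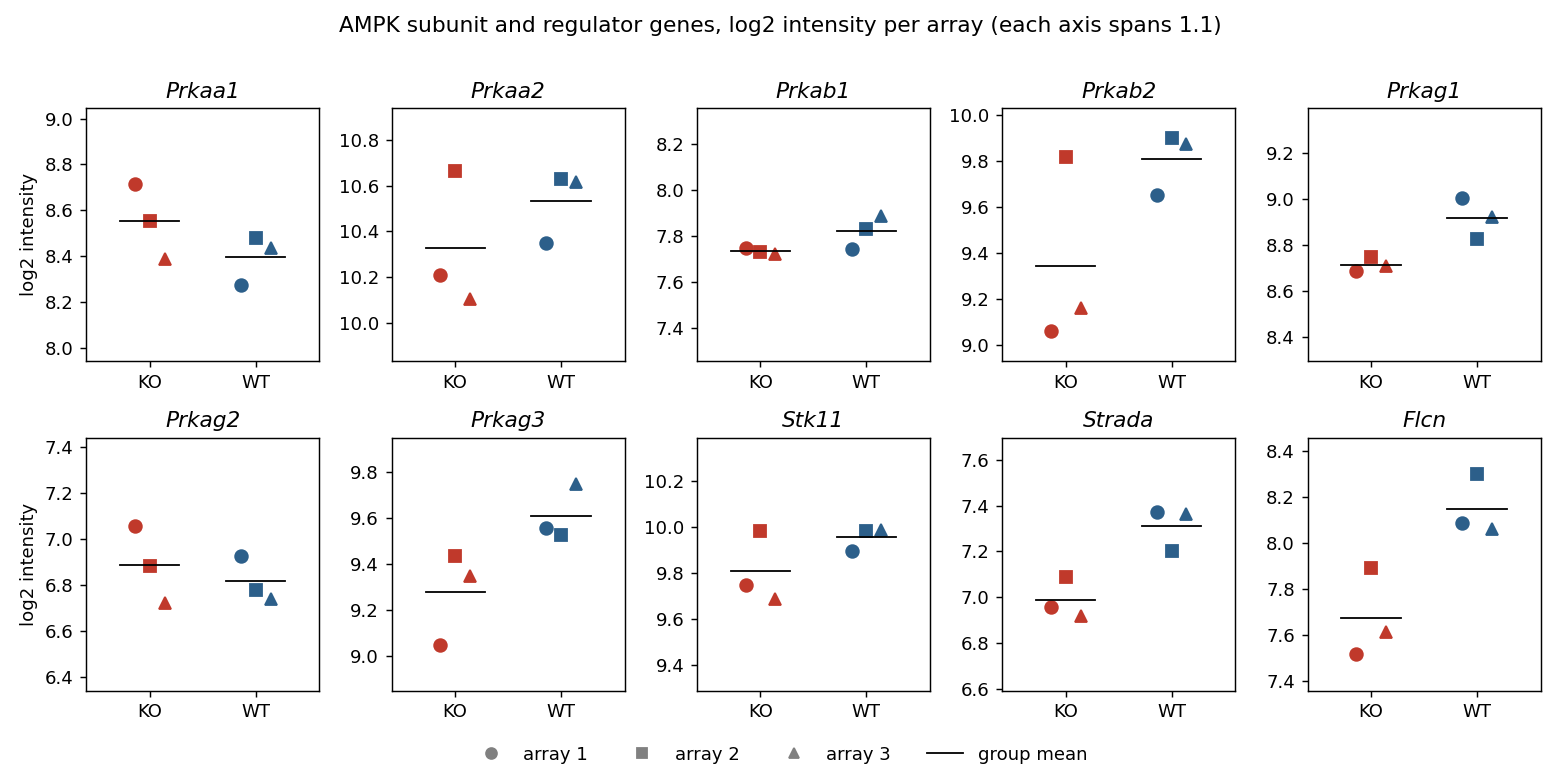
Log2 intensity (vertical axes, each spanning 1.1) of the 10 AMPK genes in 3 knockout (KO, red) and 3 wild type (WT, blue) arrays, with group means as lines. Flcn, Strada, Prkag3 and Prkag1 show no overlap of the groups, and knockout array 2 (square) stands with the wild types in Prkaa2, Prkab2 and Stk11.

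Among the catalytic subunits, neither gene passed the test, and their mean changes had opposite signs. Prkaa2, the predominant catalytic gene of skeletal muscle, read 10.21, 10.66 and 10.11 in knockout arrays 1, 2 and 3 and 10.35, 10.63 and 10.62 in wild type arrays 1, 2 and 3. Knockout array 2 was the highest of the 6, while knockout arrays 1 and 3 were the lowest. The mean was 10.33 ± 0.30 in knockouts and 10.53 ± 0.16 in wild types (SD, n = 3 each), a log2 change of -0.20 ± 0.15 (SE; adjusted p = 0.531). It was -0.37 without knockout array 2 (adjusted p = 0.0889) and -0.09 without knockout array 3 (adjusted p = 0.808). Prkaa1, which is expressed in most cell types, read 8.71, 8.55 and 8.39 in the knockouts and 8.27, 8.48 and 8.44 in the wild types. Knockout arrays 1 and 2 were above every wild type array, and knockout array 3 lay within the wild type range. Its log2 change was 0.16 ± 0.11 (SE; adjusted p = 0.515), with a 95% interval of -0.10 to 0.41 that holds 0.

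Both beta subunit genes had lower mean levels in the knockouts, and neither passed over all genes with all 6 arrays. Prkab2, the main beta gene of muscle, read 9.06, 9.82 and 9.16 in knockout arrays 1, 2 and 3, against 9.65, 9.90 and 9.87 in wild type arrays 1, 2 and 3. Knockout arrays 1 and 3 lay well under all wild type arrays, and knockout array 2 sat inside the wild type range. The knockout SD was 0.41, and the wild type SD was 0.14. The log2 change was -0.46 ± 0.19 (SE; adjusted p = 0.238), which is 1.38-fold lower. It was -0.32 without knockout array 1, -0.70 without knockout array 2 and -0.37 without knockout array 3. Prkab1, the other beta gene, was tightly grouped, at 7.72 to 7.75 in the knockouts and 7.74 to 7.89 in the wild types. Its log2 change was -0.09 ± 0.09 (SE; adjusted p = 0.66).

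The gamma subunit genes included the only 2 subunit genes whose groups did not overlap. Prkag3, a gamma gene found mainly in fast glycolytic muscle fibres, read 9.05, 9.44 and 9.35 in knockout arrays 1, 2 and 3, and 9.56, 9.53 and 9.75 in wild type arrays 1, 2 and 3. The groups did not overlap, and knockout array 1 was the lowest. The log2 change was -0.33 ± 0.12 (SE), 1.26-fold lower, with an adjusted p of 0.196, and it was -0.22 without knockout array 1. Prkag1, the widely expressed gamma gene, read 8.69, 8.75 and 8.71 in the knockouts and 9.00, 8.83 and 8.92 in the wild types. The knockouts spanned only 0.06 on the log2 scale and lay just below the lowest wild type array. Its log2 change was -0.20 ± 0.09 (SE; adjusted p = 0.267). Prkag2, the remaining gamma gene, ranged from 6.72 to 7.06 in the knockouts and from 6.74 to 6.93 in the wild types (log2 change 0.07 ± 0.11 SE, adjusted p = 0.799). The sign of its change turned to -0.01 without knockout array 1.

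Within each subunit class, the muscle-enriched gene had the more negative mean change, and with all 6 arrays the genotypes overlapped in each of the 3 pairs. The log2 difference between both genes of a pair was taken within each array and set relative to its wild type mean, so that only unequal change is compared and not the level of different probe sets. For Prkaa2 minus Prkaa1 it was -0.64, -0.03 and -0.42 in knockout arrays 1, 2 and 3, against -0.06, 0.02 and 0.04 in wild type arrays 1, 2 and 3. The mean difference was -0.36, and knockout array 2 lay within the wild type range (exact two-sided permutation p = 0.2, n = 3 each). For Prkab2 minus Prkab1 it was -0.68, 0.10 and -0.55 in the knockouts, against -0.08, 0.08 and -0.0026 in the wild types. Here knockout array 2 was the highest of all 6, and the mean difference of -0.38 gave an exact permutation p of 0.4. For Prkag3 minus Prkag1 it was -0.33, -0.0029 and -0.06 in the knockouts, against -0.14, 0.01 and 0.13 in the wild types, with a mean of -0.13 (exact permutation p = 0.4). After adjustment over the 3 pairs each exact permutation p was 0.4, and 3 arrays against 3 cannot give less than 0.1. Without knockout array 2 the mean difference was -0.53 for Prkaa2 minus Prkaa1 and -0.61 for Prkab2 minus Prkab1. In both pairs that array was the only knockout array overlapping the wild types, so leaving it out had to separate the groups. The exact permutation p was thereby fixed at 0.1 each before adjustment, the smallest that 2 against 3 can give. With 1 array left out these differences ran from -0.53 to -0.22 and from -0.61 to -0.23. That of Prkag3 minus Prkag1 ran from -0.20 to -0.03, the smallest of these without knockout array 1.

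**Figure D2:**
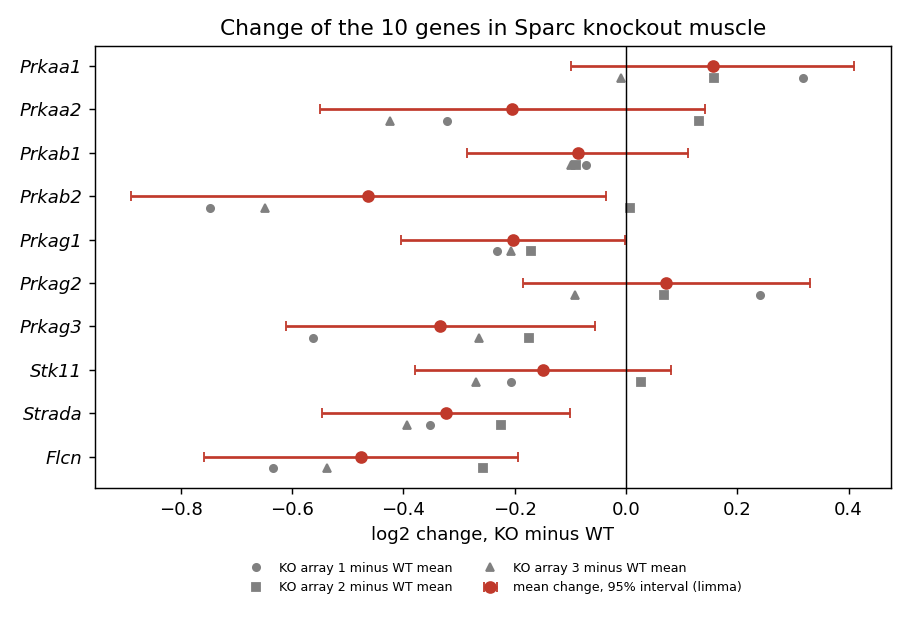
Log2 change in knockout (KO) relative to wild type (WT) muscle (horizontal axis) for each of the 10 AMPK genes, with the 95% interval from limma (red), and each knockout array minus the wild type mean (grey). The intervals of Flcn, Strada, Prkag3, Prkab2 and Prkag1 lie below 0 before adjustment for the number of genes tested.

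Among the upstream genes, Flcn and Strada had the smallest p-values of the 10, while Stk11 overlapped between genotypes. Flcn, folliculin, read 7.52, 7.89 and 7.61 in knockout arrays 1, 2 and 3 and 8.09, 8.30 and 8.06 in wild type arrays 1, 2 and 3. All knockout arrays were below all wild type arrays, with a gap of 0.169 on the log2 scale between the nearest 2 arrays. The mean was 7.67 ± 0.20 in knockouts and 8.15 ± 0.13 in wild types (SD, n = 3 each). The log2 change was -0.48 ± 0.12 (SE), 1.39-fold lower, and missed the threshold at an adjusted p of 0.107. Strada, the pseudokinase that activates LKB1, read 6.96, 7.09 and 6.92 in the knockouts, against 7.37, 7.20 and 7.36 in the wild types. Its groups were separated too, and the spread was alike, with SDs of 0.088 in knockouts and 0.096 in wild types. The log2 change was -0.32 ± 0.10 (SE), 1.25-fold lower (adjusted p = 0.139). Stk11, the LKB1 kinase gene, ranged from 9.69 to 9.98 in knockouts and from 9.90 to 9.99 in wild types, a log2 change of -0.15 ± 0.10 (SE; adjusted p = 0.487). It was -0.24 without knockout array 2 (adjusted p = 0.134) and -0.09 without knockout array 3 (adjusted p = 0.717).

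The promoters of Flcn and Strada are printed because these genes had the smallest p-values and the same direction in every knockout array. Each is the 250 bases before an annotated start site, from RefSeq on GRCm38.p6, and both genes lie on the minus strand, with Flcn at chr11:59810040-59810289 and Strada at chr11:106193604-106193853. An annotated start site can lie inside the full span of a gene. The span of Strada reaches 106193634, so part of its window lies within the gene. Capitals mark matches to the motifs named after the sequences.
Flcn: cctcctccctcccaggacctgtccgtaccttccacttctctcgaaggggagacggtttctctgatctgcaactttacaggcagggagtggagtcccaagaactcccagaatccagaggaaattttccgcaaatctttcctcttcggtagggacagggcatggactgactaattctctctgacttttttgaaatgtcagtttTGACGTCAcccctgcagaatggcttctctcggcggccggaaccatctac
Strada: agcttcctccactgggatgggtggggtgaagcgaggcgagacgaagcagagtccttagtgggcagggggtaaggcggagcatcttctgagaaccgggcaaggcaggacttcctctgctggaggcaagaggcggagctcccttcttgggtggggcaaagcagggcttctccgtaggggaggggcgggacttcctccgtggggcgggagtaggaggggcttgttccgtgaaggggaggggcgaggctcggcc
Both strands were searched for CACGTG, the E-box bound by TFEB and its relatives, for TNAAGGTCA, an ERR-type site, for CCAAT, and for TGACGTCA, the cyclic AMP response element, which was added after the Flcn sequence was seen. All 10 genes matched the promoter table, with 12 promoters, since Prkag2 has 3. TGACGTCA occurred in 1 of the 12, at 49 bases before the start of Flcn, and in 1.55% of all 32851 promoters. CACGTG occurred in 0 of the 12 and in 6.02% of all promoters. TNAAGGTCA occurred in 1 of the 12, a Prkag2 promoter, against 1.14% of all. CCAAT occurred in 4 of the 12 (Prkag1, 2 Prkag2 promoters, in 1 of them as 2 overlapping matches, and Stk11) against 33.8% of all, and the Strada promoter held 0 matches to any of the 4 motifs. A match in letters is a description of the window and not a measured binding site.

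Flcn and Sparc both lie on chromosome 11, with 80 protein-coding genes between them in the RefSeq gene order. Of the 57 of these that were tested, 3 fell past the adjusted threshold (Mrpl55, Zfp672 and H2aw, named after their values were seen) and 0 rose. Over all genes 0.673% fell past it and 0.321% rose. At the nominal level 22.8% of the 57 passed, 13 lower and 0 higher. Over all genes 18.4% did, 10.3% lower and 8.16% higher. In 16 of the 57 the knockouts lay below all wild types and in 2 above them, beside 13.8% and 11.1% of all genes. Strada lies on the same chromosome with 970 protein-coding genes between it and Sparc. The targeted allele was carried on a mixed background, and the part of sequence differences near Sparc in the Flcn value was not tested.

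Leaving out 1 array at a time kept the change of Prkab2 negative in all 6 fits. In Flcn, Strada and Prkag3 the sign could not turn, since no knockout array reached the wild types. Flcn ranged from -0.59 to -0.40 on the log2 scale and Strada from -0.38 to -0.29. Strada did not pass in any of them (lowest adjusted p = 0.0802, without knockout array 2), nor did Prkag3 (lowest 0.0925, also without knockout array 2). In 7 of the 8 genes with a negative change, knockout array 2 was the knockout array with the highest level. The share among all genes with a negative change was not taken. Knockout array 2 was also nearest to the wild types on the first principal component of all genes tested.

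**Figure D3:**
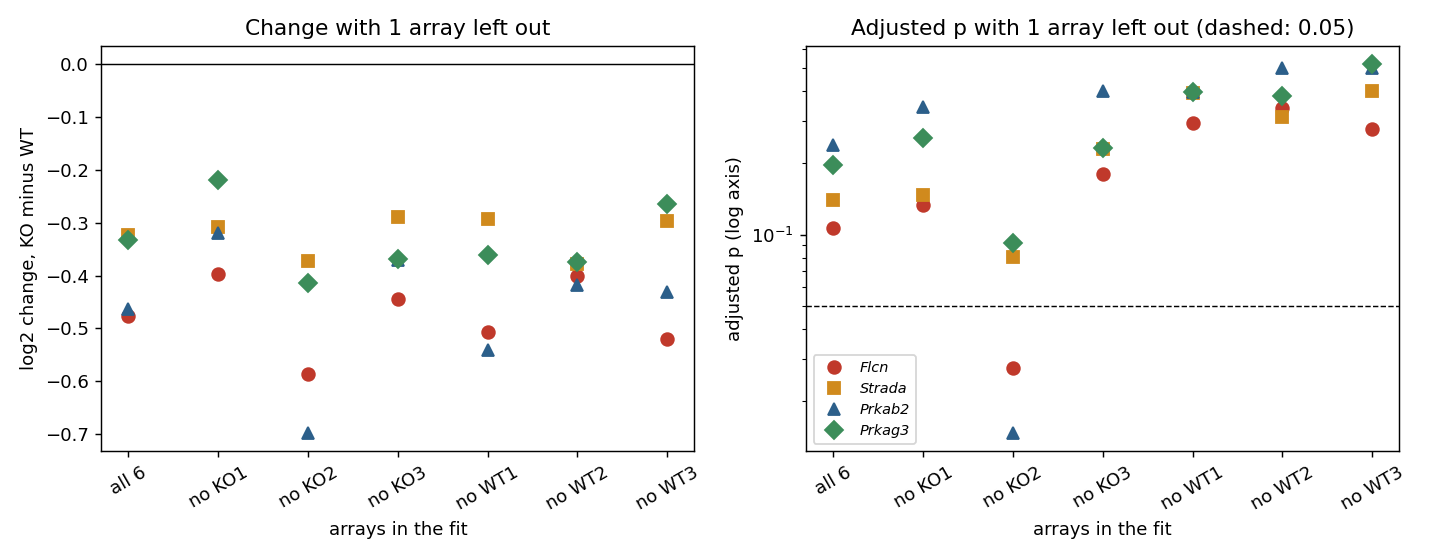
Log2 change in knockout relative to wild type muscle (left) and adjusted p on a log axis (right) for Flcn, Strada, Prkab2 and Prkag3 with all 6 arrays and with each array left out in turn. Only the fit without knockout array 2 brings Flcn (0.0274) and Prkab2 (0.0147) under the dashed line at 0.05.

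The genes around these 10 were read from 6 lists with 70 entries, of which 66 could be tested. By limma 0 of the 66 passed over all genes in either direction. At the nominal level 13 of them passed as lower and 8 as higher, beside 10.3% and 8.16% of all genes. The nominal counts of each list below are to be read against the same shares. Their median log2 change was -0.06.

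Other LKB1 complex genes and AMPK kinases numbered 5, with 1 lower and 1 higher at the nominal level. Stradb, the paralog of Strada, read 9.12, 9.47 and 9.22 in knockout arrays 1, 2 and 3 and 9.71, 9.55 and 9.53 in wild type arrays 1, 2 and 3. Its groups were separated like those of Strada, and its log2 change was -0.32 ± 0.11 (SE; adjusted p = 0.184). It passed without knockout array 2 (-0.42, adjusted p = 0.0466), and its adjusted p was 0.463 without wild type array 1. Camkk2, the calcium-dependent kinase that also phosphorylates AMPK, read 6.14, 5.96 and 6.07 in knockouts, against 5.76, 5.83 and 5.91 in wild types. All knockout arrays lay above all wild type arrays, with a log2 change of 0.22 ± 0.10 (SE; adjusted p = 0.27). The scaffold gene of the LKB1 complex, Cab39, had a log2 change of 0.05 ± 0.09 (SE; named after its value was seen).

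Of 14 folliculin partners and Rag pathway genes, 1 passed as lower and 2 as higher at the nominal level, with a list median of -0.06. Fnip2, a binding partner of folliculin, read 6.72, 6.28 and 6.57 in knockout arrays 1, 2 and 3 and 6.07, 6.19 and 6.04 in wild type arrays 1, 2 and 3. It was thus above every wild type array in all 3 knockouts, opposite in sign to Flcn, with a log2 change of 0.42 ± 0.13 (SE; adjusted p = 0.135). It passed without knockout array 2 (0.54, adjusted p = 0.0344), and its adjusted p was 0.377 without wild type array 1. Lamtor2, part of the Ragulator complex that anchors Rag GTPases to the lysosome, had a log2 change of -0.29 ± 0.12 (SE; adjusted p = 0.237).

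Sestrins and adiponectin input genes, 7 in number, held 1 lower and 1 higher at the nominal level. Adipor1, the adiponectin receptor most abundant in muscle, read 10.55, 10.89 and 10.55 in knockouts, against 11.02, 10.95 and 10.94 in wild types. The groups did not overlap, and the log2 change was -0.31 ± 0.11 (SE; adjusted p = 0.186). Sesn3, a sestrin, was at 0.34 ± 0.14 (SE; adjusted p = 0.232). Both passed without knockout array 2, Adipor1 at -0.42 (adjusted p = 0.0224) and Sesn3 at 0.48 (adjusted p = 0.0452). Without wild type array 1 the adjusted p was 0.445 for Adipor1 and 0.498 for Sesn3.

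Of 16 AMPK substrate genes, 5 passed as lower and 2 as higher at the nominal level, with a median of -0.14. Tsc2, a subunit of the complex that restrains mTORC1, read 7.97, 8.36 and 8.16 in knockout arrays 1, 2 and 3. In wild type arrays 1, 2 and 3 it read 8.62, 8.60 and 8.61. The wild types were nearly equal and all knockouts lay below them, with a log2 change of -0.45 ± 0.11 (SE; adjusted p = 0.102). The change was -0.55 without knockout array 2 (adjusted p = 0.0238) and -0.44 without wild type array 1 (adjusted p = 0.321). Ppargc1a, the coactivator of mitochondrial biogenesis, read 9.85, 9.71 and 9.59 in knockouts and 9.31, 9.47 and 9.06 in wild types, with separated groups in the other direction (log2 change 0.44 ± 0.12 SE, adjusted p = 0.122).

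Among 13 AMPK-related kinases, 1 passed as lower and 2 as higher at the nominal level, and the median was -0.01. Mark1, a microtubule affinity-regulating kinase, was at 0.31 ± 0.09 (SE; adjusted p = 0.133), and Sik3, a salt-inducible kinase, at -0.23 ± 0.10 (SE; adjusted p = 0.26).

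Of 11 metabolic genes tied to AMPK action in muscle, 4 passed as lower and 0 as higher at the nominal level, with a median of -0.16. Mlycd, malonyl-CoA decarboxylase, which relieves the block on fatty acid entry into mitochondria, read 6.97, 7.06 and 6.82 in knockout arrays 1, 2 and 3, against 7.51, 7.51 and 7.37 in wild type arrays 1, 2 and 3. Its groups were clearly apart, with a log2 change of -0.52 ± 0.10 (SE), and it came nearest to the threshold of the 66 (adjusted p = 0.0583). It passed with array weights (adjusted p = 0.0464) and without knockout array 2 (adjusted p = 0.0267). Its adjusted p was 0.237, 0.27 and 0.222 without wild type arrays 1, 2 and 3. Ucp3, a mitochondrial carrier of muscle, was at -0.68 ± 0.17 (SE; adjusted p = 0.102). It was at -0.89 without wild type array 1 (adjusted p = 0.0429) and at -0.59 without wild type array 2 (adjusted p = 0.329).

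**Figure D4:**
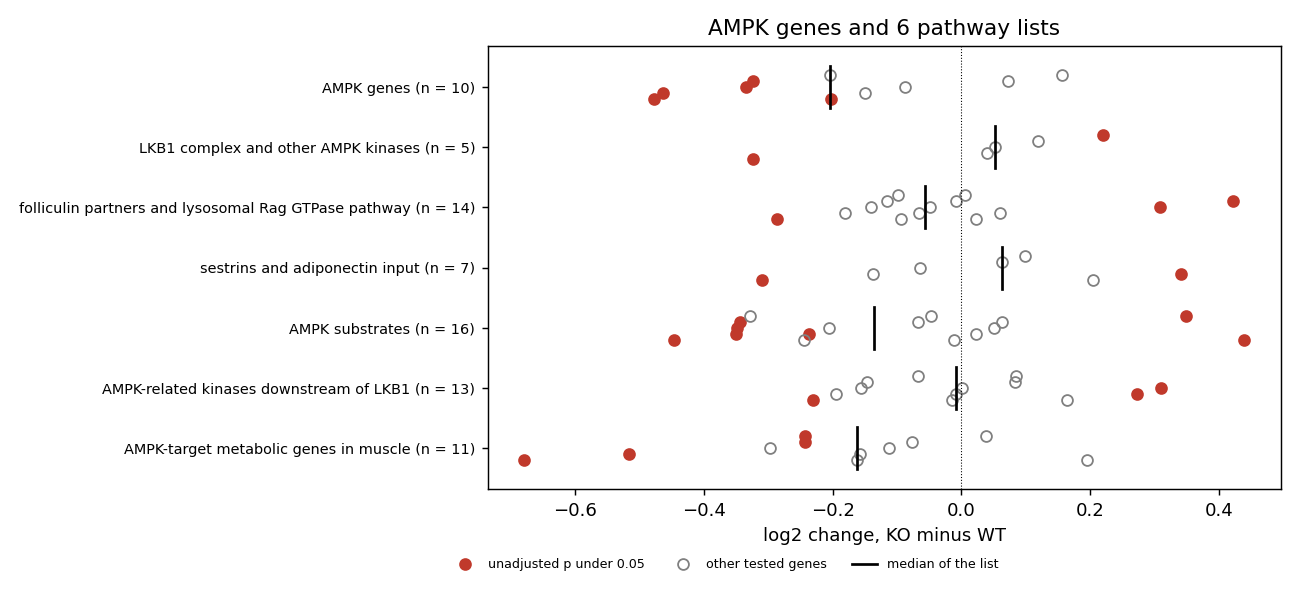
Log2 change in knockout relative to wild type muscle (horizontal axis) for the 10 AMPK genes and for each tested gene of 6 pathway lists, with filled points where the p before adjustment is under 0.05 and a bar at each median. The AMPK genes have a median of -0.20 and the AMPK-related kinases one of -0.01.

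The tested genes nearest to Flcn in pattern were Bsdc1, Dennd6b and Ccdc86. Nearness was the root mean square difference over the 6 arrays after each gene's wild type mean was subtracted, at 0.0389, 0.0446 and 0.0573 on the log2 scale. Nearest to Strada were Yipf7, Tmem135 and Akirin1, at 0.0236, 0.0330 and 0.0354. Their own log2 changes ran from -0.47 to -0.42 in the first set and from -0.34 to -0.29 in the second, and 0 of the 6 passed the adjusted threshold. The 3 near Flcn passed without knockout array 2, as Flcn did. All 6 were picked for likeness over these same arrays, so their changes follow from the choice.

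Of the markers of cells other than muscle fibres, 4 lists (macrophage, fibroblast, tendon, and pericyte and smooth muscle) averaged higher in every knockout array than in any wild type array. In bulk muscle, more cells of a type and more RNA per cell cannot be told apart. Macrophage markers averaged 0.42 to 1.27 above the wild type mean in the knockout arrays, against -0.05 to 0.05 in the wild type arrays, with 8 of 8 changes positive. Fibroblast markers averaged 0.16 to 0.94 in knockouts and -0.08 to 0.10 in wild types, tendon markers 0.40 to 1.29 and -0.31 to 0.22, and pericyte and smooth muscle markers 0.27 to 0.47 and -0.10 to 0.07. All 26 genes in these 4 lists had a positive change. By limma 0 of the 26 passed over all genes, and 19 had higher values at the nominal level, where 8.16% of all genes did. In 18 of the 26 the knockouts lay above all wild types without overlap, as in 11.1% of all genes.

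Fast fibre markers, which share fibres with Prkag3, had a negative change in 9 of 10 and averaged -0.23, -0.02 and -0.14 in knockout arrays 1, 2 and 3, against -0.01, 0.02 and -0.01 in wild type arrays 1, 2 and 3. At the nominal level 3 of the 10 were lower and 1 higher, beside 10.3% and 8.16% of all genes, and 0 passed over all genes. In 8 of the 10 the knockouts lay below all wild types without overlap and in 0 above them, beside 13.8% and 11.1% of all genes. The 10 AMPK genes averaged -0.26, -0.05 and -0.29 in the knockouts and -0.05, 0.01 and 0.03 in the wild types. Both averages were thus nearest to the wild types in knockout array 2. Slow fibre markers averaged -0.98 to 0.38 in the knockouts and -0.12 to 0.06 in the wild types, with only Myl3, a slow myosin light chain, past the adjusted threshold (-1.23 ± 0.18 SE, adjusted p = 0.0256; named after its value was seen). Adipocyte markers averaged -0.78 to -0.54 in knockouts and -0.75 to 0.45 in wild types. Endothelial markers ran from -0.44 to 0.27 in knockouts and from -0.06 to 0.06 in wild types, and Schwann cell markers from -0.13 to 0.30 and -0.06 to 0.09. The 7 general muscle markers averaged -0.13 to 0.05 in knockouts and -0.0019 to 0.0033 in wild types. That average joins opposite changes, since 5 of the 7 had knockouts below all wild types and 2 above them. Over all genes these shares were 13.8% and 11.1%. The part of fibre type or of other cells in the AMPK gene values was not tested.

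**Figure D5:**
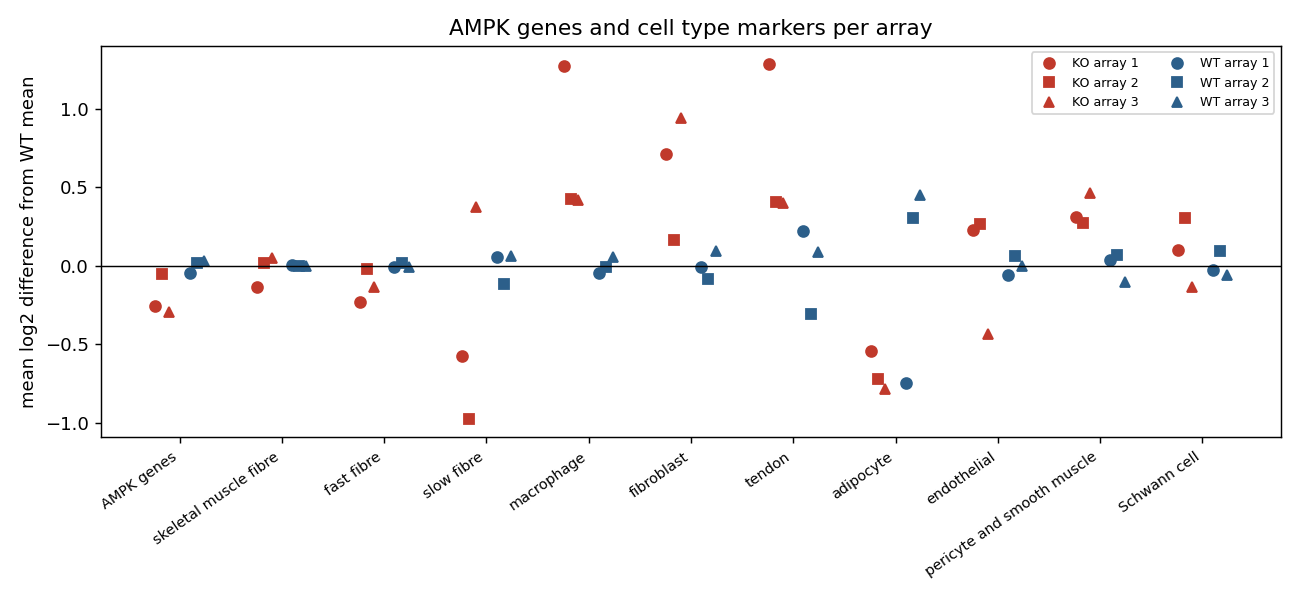
Mean log2 difference from the wild type mean (vertical axis) per array for the 10 AMPK genes and for each marker list, with knockout (KO) arrays in red and wild type (WT) arrays in blue. Macrophage, fibroblast, tendon and pericyte markers lie above the wild types in all 3 knockout arrays, and the AMPK genes and the fast fibre markers lie below them, the AMPK genes by a narrow gap (highest knockout array -0.0524, lowest wild type array -0.0461).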

How the data were processed

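The authors deposited probe-set intensities on a linear scale, made by RMA; the submitters' processing notes name Affymetrix Expression Console 1.3.0.187. For the probe sets' genome build, the sources used here give nothing. RMA shrinks differences between dim probe sets, there are no detection calls, and the number of arrays (3 per group) limits the precision. Log2 was taken without an offset. No 2 arrays held the same values.

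Names came from GEO's platform annotation, which can be old: of the probe sets, 21789 had 1 gene symbol, 1621 had several (not used) and 12146 were unnamed. The probe set with the highest mean stood for a gene. Dim genes, with a mean below 3.90 (the 25th percentile over the probe sets), were left out.

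The genotype test was limma 3.58.1 (R 4.3.3; lmFit, trended eBayes, two-sided), with Benjamini-Hochberg adjustment over all 16487 genes and a threshold of 0.05. Values are log2 intensities, ± is an SD over 3 arrays or the moderated SE of a log2 change, and changes are knockout minus wild type. Pairs of subunit genes were compared by an exact permutation test. The procedure was tested on simulated data.

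The 10 genes and all lists were chosen with earlier results of these data known. Genes named are the 10, Sparc, the 2 with the smallest p in each pathway list with any that passed, and the 3 tested genes nearest in pattern to Flcn and to Strada; others are marked.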

Additional observations from a re-analysis of the deposited data

How the results depend on the processing

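The comparison was repeated under 15 alternatives. All 10 genes kept the sign of their change in each of them, except Prkag2 (-0.012 to 0.15 with 1 array left out, the first of these without knockout array 1). Other settings of the dim filter, the probe set rule or eBayes, and the replicate block, could not alter these changes, only their p-values. The number of AMPK genes past the adjusted threshold was 0 in 14 alternatives and 2 without knockout array 2, so it ranged from 0 to 2 with 1 array left out. The number lower before adjustment (5, p under 0.05) was 2 after a second quantile normalization, 3 with array weights, and 2 to 7 with 1 array left out. The count over all genes (164, with 53 higher and 111 lower) was 103 after median centring, with 26 higher, and 329 with array weights, with 110 higher and 219 lower. With 1 array left out it ranged from 27 to 1019, with 6 to 425 higher and 20 to 594 lower, and was 32, 30 and 27 without wild type arrays 1, 2 and 3. The cause was not tested. The titles give both genotypes replicate numbers 1 to 3. Deviations of same-numbered arrays from their group means had correlations of 0.00883, 0.0822 and -0.0201 across genes. With 3 arrays per group these values cannot show whether the numbers pair the samples. With a replicate block 123 genes passed, 64 of them lower, and 0 AMPK genes did, with Flcn at an adjusted p of 0.0935. The differences between paired subunit genes kept their sign in the 11 alternatives run for them. Median centring, the dim filters and the probe set rule were among these and could not alter a difference taken within an array. Over all 15 alternatives Flcn's adjusted p ran from 0.0274 to 0.341, Prkab2's from 0.0147 to 0.501 and Strada's from 0.0802 to 0.402. Signal over background was not given, and all 10 genes lay above the filter in every array (lowest 6.72).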
